A study of Mus musculus with 36 samples.

Results

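Imprinted genes that act on growth were followed in RNA from mouse skeletal muscle stem cells, the Pax7+ cells that rebuild muscle fibres. The members were the 9 of 11337 gene rows whose symbols are Ndn, Mest, Cdkn1c, Peg3, Igf2, H19, Plagl1, Grb10 and Meg3, and all 9 were in the table. The cells came from 36 male C56BL/6 mice, 1 library per mouse, in 8 groups that form 2 cohorts. In the wheel cohort, mice had a running wheel for 3 weeks. The wheel was free for O(+Ex) (18 months old, n = 5) and locked for O(-Ex) (18 months, n = 7), and likewise free for Y(+Ex) (3 months, n = 3) and locked for Y(-Ex) (3 months, n = 6). Their hindlimb cells were sorted as CD31-, CD45-, Sca1- and VCAM+. In the Ccnd1 cohort, all mice carried Pax7_CreERT2, a tamoxifen-activated recombinase made in Pax7-expressing cells, and the R26R_YFP reporter, and all received tamoxifen. YFP+ cells were sorted 6 weeks later from Y(KO) (Ccnd1_flox/flox, 3 months, n = 5), Y(HET) (Ccnd1_+/flox, 3 months, n = 4), O(WT) (Ccnd1_+/+, 18 months, n = 3) and Y(WT) (Ccnd1_+/+, 3 months, n = 3). The deletion is thus induced in adult Pax7-expressing cells, and the WT mice differ from the KO and HET mice in the floxed allele but not in Cre, reporter or drug.

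Imprinted genes are read mainly from the copy inherited from one parent, with DNA methylation laid down in the germ line marking which copy is silent. Mest, Peg3, Igf2, Ndn and Plagl1 are read from the paternal copy, and Cdkn1c, H19 and Meg3 from the maternal copy. Grb10 is read from the maternal copy in most mouse tissues and from the paternal copy in neurons. Many of these genes are highest in fetal tissue and decline after birth, and several set how muscle progenitors divide or rest. The levels given here do not tell the parental copies apart.

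Several members carry a microRNA inside the gene, and the sorted cells' polyadenylated RNA reports the host and not the microRNA. In RefSeq (GRCm38.p6), 9 mature microRNAs of 4 members were found, with 9 different seeds. Those of Mest, Igf2 and H19 are shown here because the first of these fell with age, the second rose and the third did neither. Capitals mark the seed, bases 2 to 8.
mmu-miR-335-5p (Mest intron): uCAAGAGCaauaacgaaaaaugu
mmu-miR-335-3p (Mest intron): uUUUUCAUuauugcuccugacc
mmu-miR-483-5p (Igf2 intron): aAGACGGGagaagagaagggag
mmu-miR-483-3p (Igf2 intron): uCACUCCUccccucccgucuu
mmu-miR-675-5p (H19 exon): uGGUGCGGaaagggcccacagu
mmu-miR-675-3p (H19 exon): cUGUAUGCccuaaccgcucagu

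RefSeq promoter windows, 250 bases before to 50 after a start site, were found for 7 of the 9 members, 14 windows in all. They were searched on both strands for TGCCGC, the core bound by ZFP57, the zinc finger protein that keeps imprints methylated. The motif was in 6 of 14 windows (42.9%), belonging to 5 members, against 11.6% of 32851 windows of the same length over all genes. The motif holds a CpG, and the 14 windows held 1 to 45 CpG each, where the median over all windows was 7. The comparison was not matched for CpG content. Of the 6 windows, 2 are Mest windows that overlap almost fully. The 5 genes with a match are the ones shown, and all 5 passed the test with age described below. Cdkn1c, which passed too, and H19 had no window, and the windows of Peg3 and Ndn held no match. A link between match and age was not tested. Capitals mark the match, which reads GCGGCA where it lies on the other strand. A match is a string of letters and not a measured site.
Mest, chr6:30737800-30738099, plus strand: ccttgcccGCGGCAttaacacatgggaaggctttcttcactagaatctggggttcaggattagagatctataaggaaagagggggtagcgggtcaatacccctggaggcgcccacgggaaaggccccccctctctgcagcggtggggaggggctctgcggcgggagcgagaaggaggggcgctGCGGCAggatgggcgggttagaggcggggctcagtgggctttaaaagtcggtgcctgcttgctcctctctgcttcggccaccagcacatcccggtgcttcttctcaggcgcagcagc
Igf2, chr7:142661222-142661521, minus strand: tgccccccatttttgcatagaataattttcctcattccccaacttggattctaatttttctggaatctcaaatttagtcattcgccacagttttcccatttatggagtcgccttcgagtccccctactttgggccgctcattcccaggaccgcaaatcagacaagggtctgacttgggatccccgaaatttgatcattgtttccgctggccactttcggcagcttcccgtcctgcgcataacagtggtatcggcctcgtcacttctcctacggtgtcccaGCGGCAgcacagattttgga
Plagl1, chr10:13090582-13090881, plus strand: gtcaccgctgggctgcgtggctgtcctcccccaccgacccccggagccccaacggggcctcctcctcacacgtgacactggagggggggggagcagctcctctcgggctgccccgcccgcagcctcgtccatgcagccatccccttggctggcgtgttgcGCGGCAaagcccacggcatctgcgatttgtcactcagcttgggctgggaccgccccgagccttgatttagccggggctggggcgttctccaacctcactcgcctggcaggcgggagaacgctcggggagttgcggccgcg
Grb10, chr11:12037371-12037670, minus strand: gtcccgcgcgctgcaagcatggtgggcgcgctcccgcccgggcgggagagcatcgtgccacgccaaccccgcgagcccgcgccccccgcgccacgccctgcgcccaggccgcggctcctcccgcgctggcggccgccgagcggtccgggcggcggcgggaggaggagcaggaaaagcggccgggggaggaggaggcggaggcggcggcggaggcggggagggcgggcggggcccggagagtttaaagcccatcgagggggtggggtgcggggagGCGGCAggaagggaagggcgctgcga
Meg3, chr12:109540746-109541045, plus strand: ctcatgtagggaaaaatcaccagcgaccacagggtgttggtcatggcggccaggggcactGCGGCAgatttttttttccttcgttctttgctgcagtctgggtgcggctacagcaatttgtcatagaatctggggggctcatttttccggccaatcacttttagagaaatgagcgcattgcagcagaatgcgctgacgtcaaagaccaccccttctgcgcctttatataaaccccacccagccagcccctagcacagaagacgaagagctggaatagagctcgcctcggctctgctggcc

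Values are RPKM, read counts scaled by exon length and library total, as adjusted by the authors, so levels of different genes are given per length. The depth behind each value is unknown, so no counting interval is given. The table holds no 0. Stem cell markers were present throughout, with Pax7 at 14.2 to 32.5 RPKM, and so were markers of other cells. Of 12 fibroadipogenic markers, Pdgfra (0.289 to 1.26 RPKM), Pi16 (0.727 to 3.92 RPKM), Clec3b (0.911 to 8.54 RPKM) and Mfap5 (1.07 to 13.7 RPKM) were below Pax7 throughout. Gsn (372 to 1181 RPKM), Dpt (50.4 to 339 RPKM), Dcn (33.7 to 153 RPKM) and Ly6a (40.4 to 120 RPKM) were above Pax7 throughout. Ly6a encodes the Sca1 used to gate cells out. Lum, Col15a1, Smoc2 and Cd34 overlapped the range of Pax7. Differences are on the log2 scale with their standard error, from limma fitted over all genes of the cohort, and a gene was called at a Benjamini-Hochberg adjusted p under 0.05 over 11337 genes. The adjustment by the authors left 6 fewer independent directions among the libraries than 36 free libraries would have. It also left 0 genes at an unadjusted p under 0.05 between Y(WT) and Y(-Ex) and 0 between O(WT) and O(-Ex), so the cohorts are not independent measurements of age.

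Per length, Peg3 was the most abundant of the 9 transcripts, with a median of 64.9 RPKM over the 36 libraries. Peg3 encodes a zinc finger protein that is found in muscle stem and interstitial cells. Grb10 followed at 38.4, Meg3 at 35.6, Cdkn1c at 25.3, Igf2 at 15.2, Mest at 13.7, Plagl1 at 7.15, Ndn at 5.40 and H19 at 4.11 RPKM. Peg3 lay above 93.3% of all genes by mean level, and H19 above 39.2%. Among the 8 groups the mean of Mest ran highest in Y(WT) and lowest in O(WT), that of Cdkn1c highest in Y(+Ex) and lowest in Y(KO), and that of Igf2 highest in O(-Ex) and lowest in Y(HET). When groups were ordered by mean, neighbours overlapped in range for every member except at 2 steps. The libraries of the 3 old groups were all above those of Y(+Ex), the next group, for Igf2, and the libraries of Y(HET) were all below those of Y(WT), the group next above it, for Ndn. How often all genes show such steps was not counted.

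**Figure D1:**
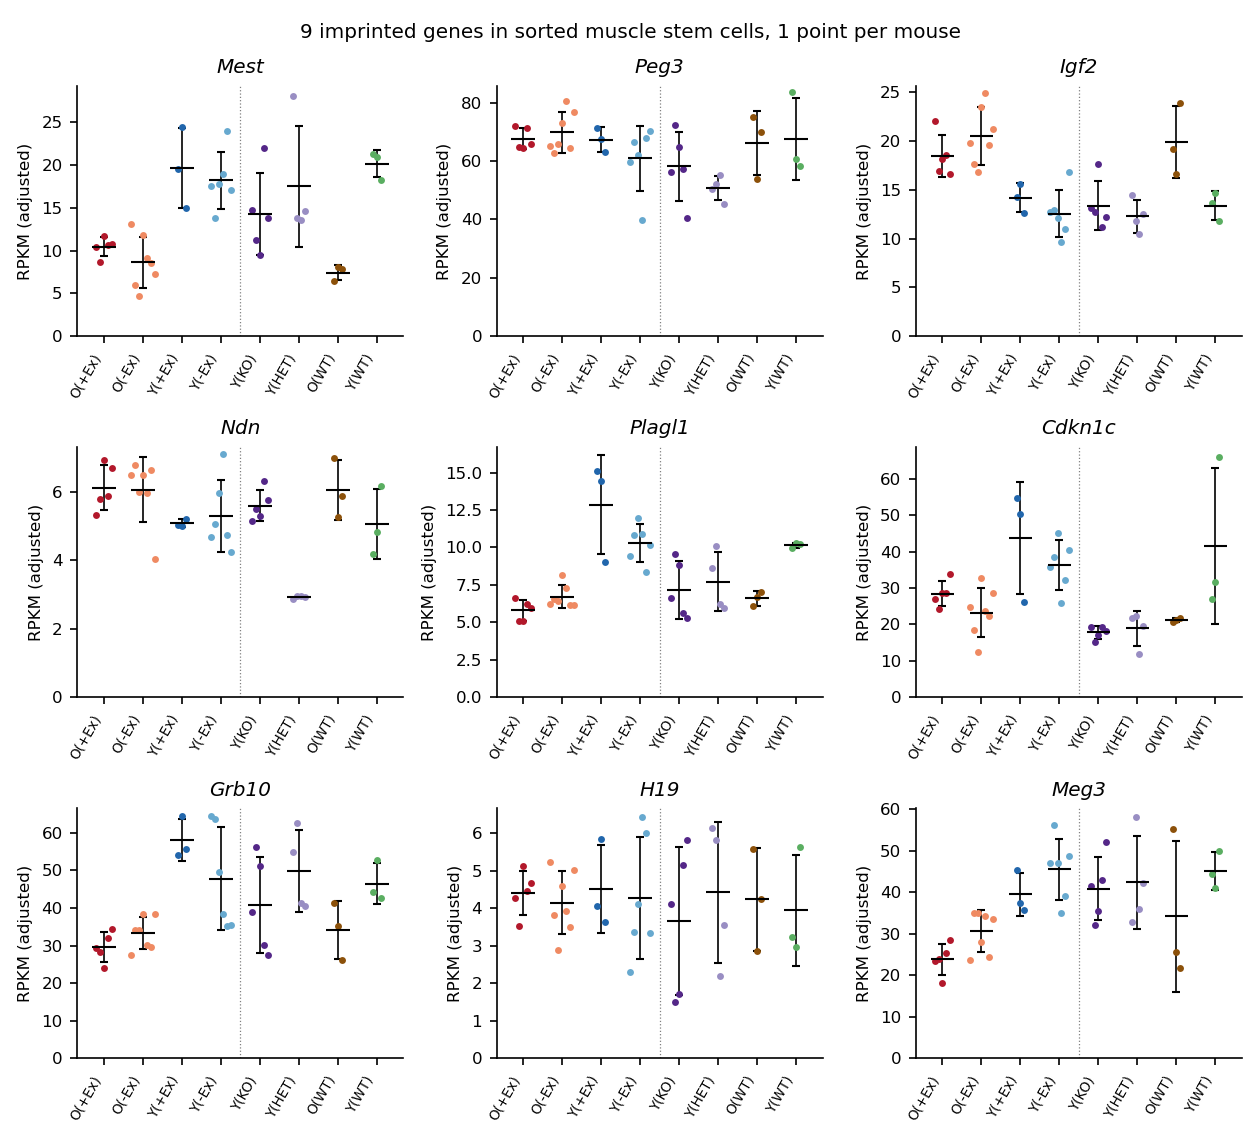
Adjusted RPKM (vertical axis, linear, from 0) of the 9 genes in each library (points) by group (horizontal axis), with the group mean (horizontal bar) and SD (vertical bar); the dotted line separates the wheel cohort from the Ccnd1 cohort. Mest is low and Igf2 high in the old groups, the 4 Y(HET) libraries lie together at 2.87 to 2.96 RPKM for Ndn, and Cdkn1c is low in Y(KO) and Y(HET).

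With age, 5 of the 9 genes fell and 1 rose in mice with a locked wheel, O(-Ex) against Y(-Ex). Mest, Cdkn1c, Meg3, Plagl1 and Grb10 were lower in old cells and Igf2 was higher. Peg3, Ndn and H19 were not called, though Ndn was called without O(-Ex) replicate 7 (0.29, adjusted p = 0.0323) and with all 36 libraries in 6 merged groups (0.22, adjusted p = 0.04). The merged groups join Y(WT) to Y(-Ex) and O(WT) to O(-Ex). Over all genes this comparison called 4342 of 11337, or 38.3%, and 6 of 9 is read against that share. The median difference of the 9 was -0.49, against 0.01 over all genes. In sorted bulk RNA, fewer cells that express a gene and less RNA of it per cell cannot be told apart.

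Mest, which encodes an enzyme of the hydrolase fold family and promotes growth of the embryo, showed the largest difference of the 9. It ranged from 4.76 to 13.1 RPKM in O(-Ex), with a median of 8.51, against 13.8 to 23.99 RPKM in Y(-Ex), with a median of 17.7. Every old library lay below every young one. The mean was 8.65 ± 2.99 RPKM in O(-Ex) and 18.2 ± 3.32 RPKM in Y(-Ex) (SD, n = 7 and n = 6), a log2 difference of -1.13 ± 0.19 (SE) with an adjusted p of 8.36e-05. That difference was lower than for all but 1.4995% of genes.

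Of the exonic bases of Mest (chr6:30723547-30748465 in mm10, plus strand), 912 (23.1%) are also exonic in Copg2, a coat protein gene on the opposite strand. Copg2 averaged 2.59 ± 0.637 RPKM in O(-Ex) and 5.24 ± 0.802 RPKM in Y(-Ex), a log2 difference of -1.05 ± 0.15 (adjusted p = 1.46e-05). The counting's strand setting was not named in these sources. Without strand, reads of Mest and Copg2 cannot be told apart in the shared bases.

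Plagl1, a zinc finger transcription factor that regulates other imprinted genes, ranged from 6.17 to 8.16 RPKM in O(-Ex) with a median of 6.42, against 8.39 to 12.0 RPKM in Y(-Ex) with a median of 10.5. The groups did not overlap. Its log2 difference was -0.61 ± 0.11 (adjusted p = 0.000239), a 1.53-fold lower level in old cells.

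Cdkn1c encodes p57, an inhibitor of cyclin-dependent kinases that helps cells leave the cycle. It ranged from 12.4 to 32.8 RPKM in O(-Ex) with a median of 23.6, against 25.8 to 45.1 RPKM in Y(-Ex) with a median of 37.2. The ranges overlapped, with most old libraries below most young ones. Its log2 difference was -0.68 ± 0.20 (adjusted p = 0.00926).

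Grb10 encodes an adaptor that binds the insulin and IGF1 receptors and damps their signal. It ranged from 27.5 to 38.5 RPKM in O(-Ex) with a median of 34.1, against 35.3 to 64.5 RPKM in Y(-Ex) with a median of 44.0, with some overlap. Its log2 difference was -0.49 ± 0.14 (adjusted p = 0.00768). The spread in Y(-Ex) was wide, with an SD of 13.6 RPKM on a mean of 47.8 RPKM.

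Meg3 is a long noncoding RNA of the Dlk1-Dio3 region, where noncoding RNAs are read from the maternal copy and protein genes such as Dlk1 from the paternal copy. It ranged from 23.7 to 34.9 RPKM in O(-Ex) with a median of 33.6, against 34.9 to 56.1 RPKM in Y(-Ex) with a median of 47.0. The groups touched, since the highest old library and the lowest young one had nearly the same value. Meg3 had a log2 difference of -0.57 ± 0.12 (adjusted p = 0.000908). Of the partner genes of the region, Dlk1, a Notch pathway ligand, was low, at 0.768 RPKM in O(-Ex) and 0.944 RPKM in Y(-Ex), and did not pass the test (log2 difference -0.39 ± 0.36, adjusted p = 0.412).

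Igf2, the fetal insulin-like growth factor, moved the other way. It ranged from 16.8 to 24.9 RPKM in O(-Ex) with a median of 19.8, against 9.68 to 16.9 RPKM in Y(-Ex) with a median of 12.5. The lowest old library lay just under the highest young one. The mean was 20.5 ± 2.94 RPKM in O(-Ex) and 12.6 ± 2.44 RPKM in Y(-Ex), a log2 difference of 0.71 ± 0.11 (adjusted p = 4.12e-05), higher than that of 95.01% of genes. Of the exonic bases of Igf2, 3596 (62.8%) are shared with the read-through gene model Gm49394 on the same strand, which has no row in the table, so how the authors' counting treated shared reads bears on this level.

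The other IGF pathway genes were set beside it. Igf1, the ligand that takes over after birth, was 3.88 ± 0.760 RPKM in O(-Ex) and 13.1 ± 3.54 RPKM in Y(-Ex), a log2 difference of -1.73 ± 0.14 (adjusted p = 3.2e-08), opposite in sign to Igf2. The receptors Igf1r (0.05 ± 0.14, adjusted p = 0.792) and Igf2r (-0.19 ± 0.08, adjusted p = 0.068) did not pass. Of the 21 pathway genes in the table, of a list of 30, 3 rose and 7 fell, Igf2 and Grb10 included, or 47.6% called against 38.3% of all genes. Igfbp4, a secreted binding protein, rose by 0.45 ± 0.17 (adjusted p = 0.0457).

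Peg3 was 69.8 ± 6.98 RPKM in O(-Ex) and 61.003 ± 11.1 RPKM in Y(-Ex), a log2 difference of 0.21 ± 0.10 (adjusted p = 0.10). Ndn, which encodes necdin, a MAGE family protein that supports survival and differentiation of muscle progenitors, was 6.05 ± 0.941 RPKM in O(-Ex) and 5.29 ± 1.05 RPKM in Y(-Ex), a log2 difference of 0.20 ± 0.12 (adjusted p = 0.210). H19, a noncoding RNA that shares enhancers with Igf2, was 4.14 ± 0.840 RPKM in O(-Ex) and 4.26 ± 1.62 RPKM in Y(-Ex), a log2 difference of 0.02 ± 0.20 with a 95% interval of -0.39 to 0.43. For all 3 the groups overlapped.

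Because Igf2 and H19 are neighbours read from opposite parental copies, the log2 ratio of Igf2 to H19 was also compared, a test added after the values were seen. The ratio was 2.32 ± 0.263 in O(-Ex) and 1.63 ± 0.769 in Y(-Ex) (SD, n = 7 and n = 6), a difference of 0.69. The two-sided exact permutation test gave p = 0.0414, and 0.0828 when adjusted over the 2 age comparisons made, which does not pass. Leaving out 1 library at a time moved the difference between 0.49 and 0.86. In the Ccnd1 cohort the ratio was 2.27 ± 0.425 in O(WT) and 1.82 ± 0.663 in Y(WT) (n = 3 each), with an exact permutation p of 0.5, where the smallest p the design allows is 0.1.

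Among other imprinted genes, 50 of 79 listed were in the table, and with age 8 rose and 13 fell. These are 42.0% of the 50, near the 38.3% called over all genes. Gnas, the stimulatory G protein subunit, rose by 0.61 ± 0.12 (adjusted p = 0.000442) and Dcn, a matrix proteoglycan that is also a fibroadipogenic marker, by 0.98 ± 0.20 (adjusted p = 0.000847). Copg2, given above, and Gab1, a docking protein of receptor tyrosine kinases, fell, Gab1 with a log2 difference of -0.60 ± 0.10 (adjusted p = 7.64e-05). Of 11 genes that set or keep imprints, 0 rose and 3 fell by limma, 27.3% against 38.3%. Among those that fell were Uhrf1, which brings the maintenance methyltransferase to replicated DNA (-1.89 ± 0.36, adjusted p = 0.000283), and Dnmt1, that methyltransferase (-0.45 ± 0.14, adjusted p = 0.0167). Uhrf1 was low, at 0.405 ± 0.177 RPKM in O(-Ex) and 1.47 ± 0.647 RPKM in Y(-Ex). Of 20 genes for cyclin-dependent kinase inhibitors and the G1 phase, 3 rose and 8 fell, 55.0% against 38.3%, Cdkn1c among the lower ones. Cdk2, a kinase that p57 inhibits, fell, with a difference of -0.78 ± 0.12 (adjusted p = 3.16e-05). Among the relatives of Cdkn1c, Cdkn1a differed by -0.08 ± 0.16 (adjusted p = 0.730) and Cdkn1b by -0.27 ± 0.11 (adjusted p = 0.069).

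Marker calls in O(-Ex) against Y(-Ex) were counted too, and are read against the 38.3% of all genes called. The called shares were 50% of stem cell, 58.3% of fibroadipogenic and 27.3% of muscle fibre markers. They were 37.5% of tenocyte, 36.4% of Schwann cell, 33.3% of endothelial, 33.3% of pericyte and 7.69% of haematopoietic markers. Of 12 stem cell markers 6 were lower in O(-Ex), and of 12 fibroadipogenic markers 5 were higher and 2 lower. The summed fibroadipogenic level was 848 to 1441 RPKM in O(-Ex) and 960 to 1223 RPKM in Y(-Ex). The summed level of 11 muscle fibre markers was 57.8 to 200 RPKM in O(-Ex) and 137 to 719 RPKM in Y(-Ex), with 3 of them called lower. Of 8 tenocyte markers 3 were higher and 0 lower by limma, with a median difference of 0.71 and a summed level of 64.5 to 273 RPKM in O(-Ex) and 47.3 to 149 RPKM in Y(-Ex). Of 12 endothelial markers 3 were higher and 1 lower, and the same counts held for 11 Schwann cell markers. Of 9 pericyte markers 1 was higher and 2 lower, with sums of 221 to 273 RPKM in O(-Ex) and 294 to 415 RPKM in Y(-Ex), and of 13 haematopoietic markers 1 was higher. None of these markers was at 0, and their part in the differences of the imprinted genes was not tested.

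**Figure D2:**
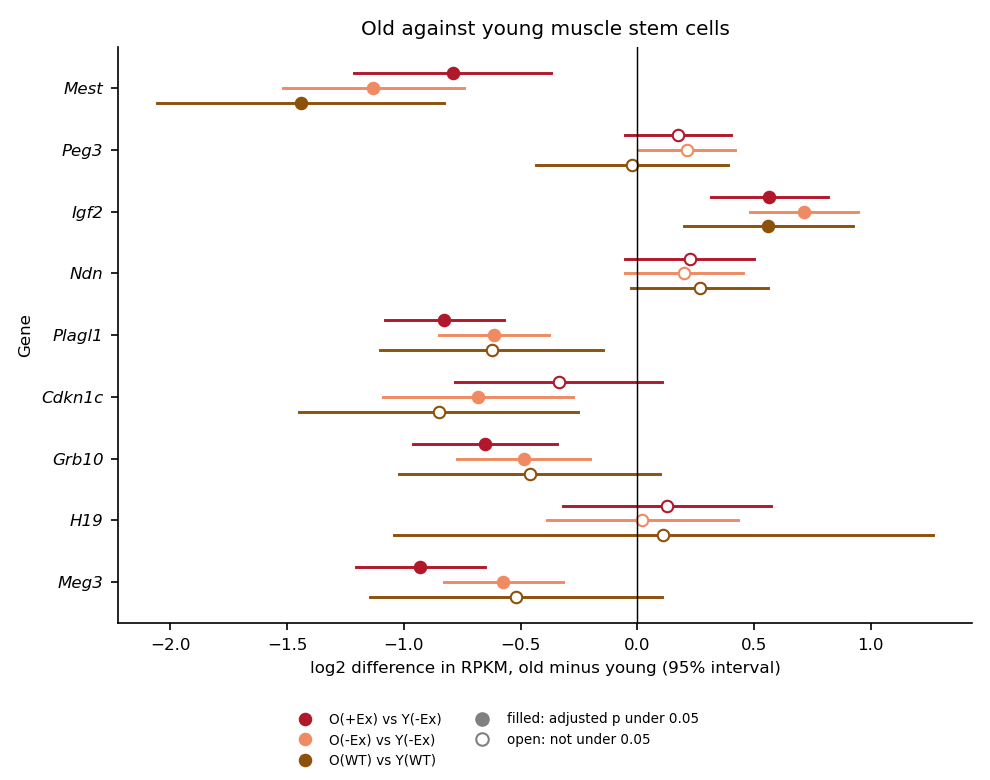
Log2 difference in adjusted RPKM, old minus young (horizontal axis), with 95% intervals, for the 9 genes in 3 comparisons; filled points have an adjusted p under 0.05. Mest lies left of 0 and Igf2 right of 0 in each, and O(-Ex) and O(+Ex) are set against the same Y(-Ex) libraries.

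In the Ccnd1 cohort, O(WT) against Y(WT), Mest was again lower and Igf2 higher, and these 2 of the 9 were called, where 15.8% of all genes were. Mest was 6.41, 8.06 and 7.83 RPKM in O(WT), against 21.2, 20.9 and 18.3 RPKM in Y(WT). Each old library was below each young one. Mest had a log2 difference of -1.44 ± 0.29 (adjusted p = 0.0057), a 2.72-fold lower level. Igf2 was 19.2, 16.6 and 23.9 RPKM in O(WT), against 13.7, 14.7 and 11.8 RPKM in Y(WT). The groups did not overlap, and the log2 difference was 0.56 ± 0.17 (adjusted p = 0.037). The call of Igf2 rested on few mice: it was lost in 7 of 14 alternative settings, with adjusted p values up to 0.154, among them leaving out any 1 Y(WT) library, O(WT) replicate 1 or O(WT) replicate 3.

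Cdkn1c and Plagl1 came close to the threshold in this cohort. Cdkn1c was 20.8, 21.3 and 21.8 RPKM in O(WT), against 27.0, 31.7 and 66.0 RPKM in Y(WT), a log2 difference of -0.85 ± 0.28 (adjusted p = 0.0519). The old values were tight and the young ones were spread by 1 high library, Y(WT) replicate 3. Without it the difference was -0.46 (adjusted p = 0.18), and without Y(WT) replicate 1 it was -1.11 (adjusted p = 0.0242). Plagl1 was 6.09, 6.68 and 7.02 RPKM in O(WT), against 9.95, 10.3 and 10.2 RPKM in Y(WT), a log2 difference of -0.62 ± 0.22 (adjusted p = 0.0707). Plagl1 was called with only the libraries of these 2 groups in the fit (adjusted p = 0.0149), a setting in which Igf2 was not (adjusted p = 0.0588), and with all 36 libraries in 8 groups (adjusted p = 0.0281). Meg3 was 55.1, 25.6 and 21.7 RPKM in O(WT), against 44.3, 40.9 and 49.97 RPKM in Y(WT), so that 1 old library was above all young ones and the others were below them. Its log2 difference of -0.52 ± 0.29 did not pass (adjusted p = 0.236), and it was -0.93 (adjusted p = 0.0199) without O(WT) replicate 1, the high library, but -0.26 (adjusted p = 0.621) without O(WT) replicate 3. Grb10 differed by -0.46 ± 0.26 (adjusted p = 0.241), and by -0.61 without O(WT) replicate 1 and -0.28 without O(WT) replicate 3. Igf1 averaged 3.67 RPKM in O(WT) and 13.9 RPKM in Y(WT), with a log2 difference of -1.92 ± 0.25 (adjusted p = 0.000916).

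The wheel comparison in old mice asks whether 3 weeks of running moved these genes. With limma, 0 of 9 were called in O(+Ex) against O(-Ex), where 838 of all genes (7.39%) were. Over all 11337 genes 2645 had an unadjusted p under 0.05, and of the 9 members 1 had. That gene was Meg3, at 23.5, 23.9, 18.1, 25.4 and 28.4 RPKM in O(+Ex) against a median of 33.6 RPKM in O(-Ex). Its log2 difference was -0.36 ± 0.13 (adjusted p = 0.0931), and the ranges overlapped. Mest was 10.4, 8.63, 11.7, 10.6 and 10.7 RPKM in O(+Ex), within the 4.76 to 13.1 RPKM of O(-Ex), with a log2 difference of 0.34 ± 0.20 and a 95% interval of -0.07 to 0.75. Cdkn1c was 26.9, 24.2, 28.7, 28.6 and 33.9 RPKM in O(+Ex), with a log2 difference of 0.34 ± 0.21 from O(-Ex) and an interval of -0.08 to 0.77. Both intervals hold 0 and also differences larger than 0.7, so the direction of the wheel's effect on these 2 genes was not resolved. Among the 50 other imprinted genes 3 rose, Chrac1 (0.30 ± 0.08) and Blcap (0.37 ± 0.10) among them, and 1, Zdbf2, fell (-0.58 ± 0.18). These are 8% of the 50, near the 7.39% called over all genes. Ccnd1 itself averaged 18.3 RPKM in O(+Ex) and 7.72 RPKM in O(-Ex), a log2 difference of 1.24 ± 0.13 (adjusted p = 4.01e-05).

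In young mice, Y(+Ex) against Y(-Ex), 0 of 9 genes were called with limma, where 1.12% of all genes were. An unadjusted p under 0.05 was found for 0 of the 9 and for 1796 of all 11337 genes. Plagl1 was 15.1, 14.4 and 9.04 RPKM in Y(+Ex), against a median of 10.5 RPKM in Y(-Ex). The first and second of these values lay above all young locked libraries and the last one inside their range. Plagl1 differed by 0.29 ± 0.14 with an interval of -0.01 to 0.59. Grb10 was 54.2, 64.5 and 55.6 RPKM in Y(+Ex), with a log2 difference of 0.33 ± 0.17 from Y(-Ex) (adjusted p = 0.374). Both genes leaned lower with the wheel in old mice, at -0.21 ± 0.12 for Plagl1 and -0.16 ± 0.14 for Grb10.

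The difference of the wheel effects, old minus young, was tested directly. With limma 0 of 9 genes were called, while 0.00882% of all genes, a single gene, was called. An unadjusted p under 0.05 was found for 960 of all 11337 genes and for 2 of the 9. The 2 were Plagl1 (-0.51 ± 0.19, adjusted p = 0.504) and Grb10 (-0.49 ± 0.23, adjusted p = 0.573). Neither passed.

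**Figure D3:**
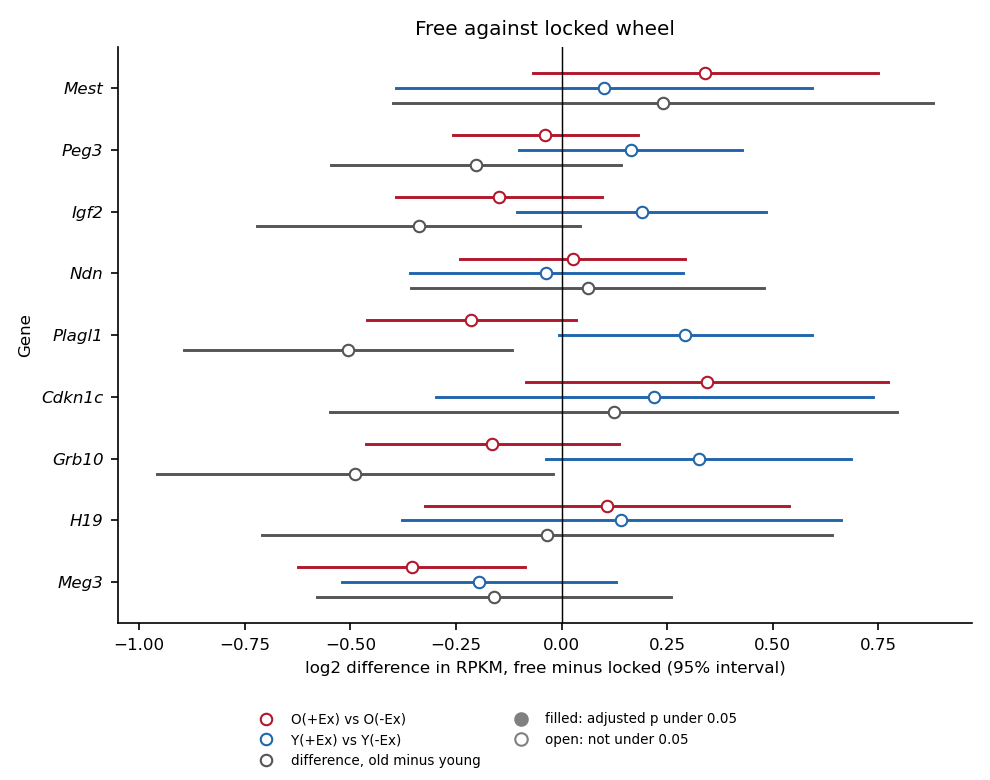
Log2 difference in adjusted RPKM, free minus locked wheel (horizontal axis), with 95% intervals, in old mice, in young mice and as the difference of the 2 (old minus young). All points are open, since no gene reached an adjusted p under 0.05. Plagl1, Grb10, Igf2, Peg3 and Ndn lie on opposite sides of 0 in old and young mice.

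Old mice with a free wheel were also set against young mice with a locked one, O(+Ex) against Y(-Ex). Of the 9 genes 5 were called, 1 higher and 4 lower, where 41.0% of all genes were called. The comparison shares its young libraries with the locked wheel one. Mest differed by -0.79 ± 0.20 (adjusted p = 0.00389), Plagl1 by -0.83 ± 0.12 (2.48e-05), Grb10 by -0.65 ± 0.15 (0.0015) and Meg3 by -0.93 ± 0.13 (1.66e-05). For these 4 genes no old library overlapped the young ones. The share of all genes without such overlap was not counted. Igf2 was 22.0, 16.9, 18.1, 18.5 and 16.6 RPKM in O(+Ex), a log2 difference of 0.57 ± 0.12 (adjusted p = 0.000875). Cdkn1c differed by -0.34 ± 0.21 with an interval of -0.78 to 0.11 (adjusted p = 0.215), and was called in the locked wheel comparison but not in this one, while O(+Ex) and O(-Ex) themselves did not differ past the threshold for Cdkn1c, as given above. Ndn (0.23), Peg3 (0.17) and H19 (0.13) were not called.

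Ccnd1, which encodes cyclin D1, a partner of the kinases that start the cell cycle, was checked first in the genotype groups. It was 3.40, 2.47, 2.07, 2.72 and 2.88 RPKM in Y(KO) and 8.13, 6.37, 7.08 and 7.14 RPKM in Y(HET), against 11.2, 10.6 and 13.3 RPKM in Y(WT). The 3 genotypes did not overlap. The log2 difference was -2.12 ± 0.15 for Y(KO) against Y(WT) (adjusted p = 6.42e-06) and -0.70 ± 0.16 for Y(HET) against Y(WT) (adjusted p = 0.0261).

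Cdkn1c was lower in both genotypes that carry a floxed Ccnd1 allele. It was the single member called in Y(KO) against Y(WT), 1 of 9, where 6.99% of all genes were called. Cdkn1c was 19.2, 15.1, 17.1, 19.4 and 18.2 RPKM in Y(KO) and 21.8, 22.3, 11.9 and 19.6 RPKM in Y(HET), against 27.0, 31.7 and 66.0 RPKM in Y(WT). Every KO and HET library was below every WT library, and one WT library was more than double the others. The log2 difference was -1.11 ± 0.25 (adjusted p = 0.0223) in Y(KO) and -1.06 ± 0.26 (adjusted p = 0.0365) in Y(HET). Without the high library, Y(WT) replicate 3, the differences were -0.72 (adjusted p = 0.0696) and -0.67 (adjusted p = 0.0837). Without Y(WT) replicate 2 they were -1.25 (adjusted p = 0.0538) and -1.20 (adjusted p = 0.0807). Markers of other cells moved in Y(KO) too. Of 8 tenocyte markers 3 were higher in Y(KO) than in Y(WT), Comp by 1.49 ± 0.27 (adjusted p = 0.0105), with summed levels of 118 to 217 RPKM in Y(KO), 78.7 to 93.8 RPKM in Y(HET) and 31.1 to 150 RPKM in Y(WT). The endothelial marker Cldn5 (0.91 ± 0.18) and the Schwann cell markers Gfra3 (1.97 ± 0.48) and Kcna1 (1.29 ± 0.36) were also called higher in Y(KO). Each was called higher in Y(HET) against Y(WT) too, Cldn5 by 0.77 ± 0.19, Gfra3 by 2.28 ± 0.50 and Kcna1 by 1.77 ± 0.37. Gfra3 was low, averaging 1.05 RPKM in Y(KO) and 0.260 RPKM in Y(WT). The 11 Schwann cell markers as a list did not rise, with a median log2 difference of 0.05 in Y(KO) against Y(WT). Their summed level was 180 to 253 RPKM in Y(KO) and 211 to 247 RPKM in Y(HET), against 238 to 262 RPKM in Y(WT). The called shares in Y(KO) were 37.5% of tenocyte, 8.33% of endothelial and 18.2% of Schwann cell markers, against 6.99% of all genes. In Y(HET) 0 tenocyte markers were higher and 1 was lower by limma. Their part in the Cdkn1c difference was not tested. The Y(HET) call of Cdkn1c was lost in 8 of 15 alternative settings, among them leaving out any 1 of the 4 HET libraries.

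Y(KO) and Y(HET) differed in Ccnd1 by -1.42 ± 0.14 (adjusted p = 0.000255) but not past the threshold in Cdkn1c. Y(KO) against Y(HET) gave -0.05 ± 0.23 for Cdkn1c, with a 95% interval of -0.54 to 0.44. The authors' deposited table also gives a correlation coefficient of each gene with Ccnd1, whose libraries and kind are not stated. In the authors' deposited table it is 0.592 for Cdkn1c, higher than for 96.5% of genes, and between -0.359 for Meg3 and 0.370 for Peg3 for the other members.

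Cdkn1c lies at chr7:143458339-143461050 in mm10, minus strand, 1.47 Mb from Ccnd1 on the same chromosome. Igf2 is 2.26 Mb and H19 2.35 Mb away. Loss of Ccnd1 and sequence that stays linked to the floxed allele cannot be told apart in this design, since both are in the KO and HET mice and neither is in WT. Of 29 genes in the table within 3 Mb of Ccnd1, itself left out, Tssc4 (0.48 ± 0.14, adjusted p = 0.0461), Cdkn1c and Tpcn2 (-0.66 ± 0.16, adjusted p = 0.0316) were called in Y(KO) against Y(WT), 10.3% against 6.99% of all genes. Tssc4 encodes a splicing factor of the same imprinted region and Tpcn2 a lysosomal ion channel. In Y(HET) against Y(WT) the called ones were Tssc4 (0.69 ± 0.14, adjusted p = 0.0176) and Cdkn1c, 6.90% against 5.39%. In Y(KO) against Y(HET) it was Mrpl23, a mitochondrial ribosome gene 2.39 Mb away (0.42 ± 0.10, adjusted p = 0.0288), 3.45% against 6.04%. Kcnq1ot1, the noncoding RNA whose paternal transcription silences Cdkn1c, averaged 2.87 RPKM in Y(KO), 2.07 RPKM in Y(HET) and 2.01 RPKM in Y(WT). Its log2 difference was 0.51 ± 0.16 in Y(KO) (adjusted p = 0.063) and 0.04 ± 0.17 in Y(HET) (adjusted p = 0.910), so neither passed. With age, Kcnq1ot1 was called higher in O(-Ex) against Y(-Ex) (0.54 ± 0.14, adjusted p = 0.0045). The differences of O(+Ex) from Y(-Ex) (0.33 ± 0.15, adjusted p = 0.0913) and O(WT) from Y(WT) (0.44 ± 0.18, adjusted p = 0.103) did not pass. A link to the level of Cdkn1c was not tested. Of the exonic bases of Cdkn1c, 30.7% are shared with the antisense gene model Gm44732, which has no row in the table.

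**Figure D4:**
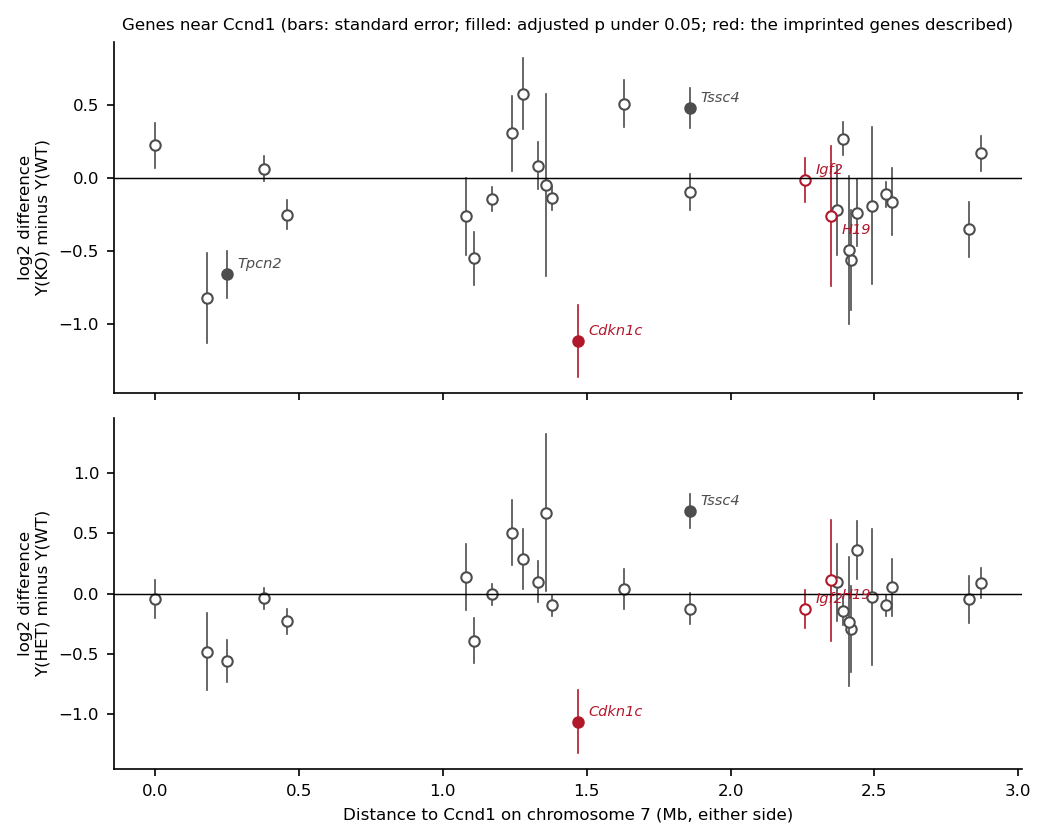
Log2 difference in adjusted RPKM against Y(WT) (vertical axes, bars are standard errors) of 29 genes by their distance from Ccnd1 in Mb (horizontal axis), for Y(KO) above and Y(HET) below; filled points have an adjusted p under 0.05. Cdkn1c, at 1.47 Mb, is the lowest point in both panels, while Igf2, at 2.26 Mb, differs by -0.01 in Y(KO) and -0.13 in Y(HET).

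Ndn stood out in Y(HET). It and Cdkn1c were the 2 of 9 called in Y(HET) against Y(WT), where 5.39% of all genes were called. Ndn was 5.13, 5.48, 5.29, 6.31 and 5.75 RPKM in Y(KO) and 2.87, 2.96, 2.95 and 2.92 RPKM in Y(HET), against 4.18, 4.81 and 6.17 RPKM in Y(WT). The HET libraries were below every KO and every WT library, and below the lowest of all other groups. The log2 difference was -0.77 ± 0.13 (adjusted p = 0.00865) for Y(HET) against Y(WT). Ndn was also the 1 of 9 called in Y(KO) against Y(HET), at 0.93 ± 0.11 (adjusted p = 0.000853), where 6.04% of all genes were called. Y(KO) against Y(WT) gave 0.16 ± 0.12 with an interval of -0.10 to 0.42, and the HET mean was thus below both the KO and the WT mean.

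The 4 HET values of Ndn were also close together. Their SD on the log2 scale was 0.02, and 0.212% of genes had a smaller one in Y(HET). Ndn lies at chr7:62346569-62350262, 82.6 Mb from Ccnd1. The summed level of 12 fibroadipogenic markers was 841 to 1038 RPKM in Y(KO) and 629 to 731 RPKM in Y(HET), against 851 to 1473 RPKM in Y(WT), so it was lowest in Y(HET) too. Gsn alone gave much of that sum, at 423 ± 54.8 RPKM in Y(HET) and 843 ± 326 RPKM in Y(WT). In Y(KO) against Y(HET) 0 of the 12 were called. In Y(HET) against Y(WT) 2 of these 12 markers (16.7%) were called lower, against 5.39% of all genes called. So were 3 of 12 stem cell markers (25%), Pax7 among them (17.9 RPKM in Y(HET) and 25.2 RPKM in Y(WT)). Of 8 tenocyte markers 4 (50%) were called higher in Y(KO) against Y(HET), against 6.04% of all genes. Mkx was among them, at 1.70 ± 0.122 RPKM in Y(HET), 3.46 ± 0.459 RPKM in Y(KO) and 3.65 ± 1.34 RPKM in Y(WT). Mkx was also the 1 tenocyte marker called lower in Y(HET) against Y(WT) (-1.03 ± 0.23, adjusted p = 0.0261). The part of all these markers in the Ndn difference was not tested. Among other imprinted genes, Impact, a translation regulator, was also lower in Y(HET) (-0.57 ± 0.11, adjusted p = 0.0126).

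**Figure D5:**
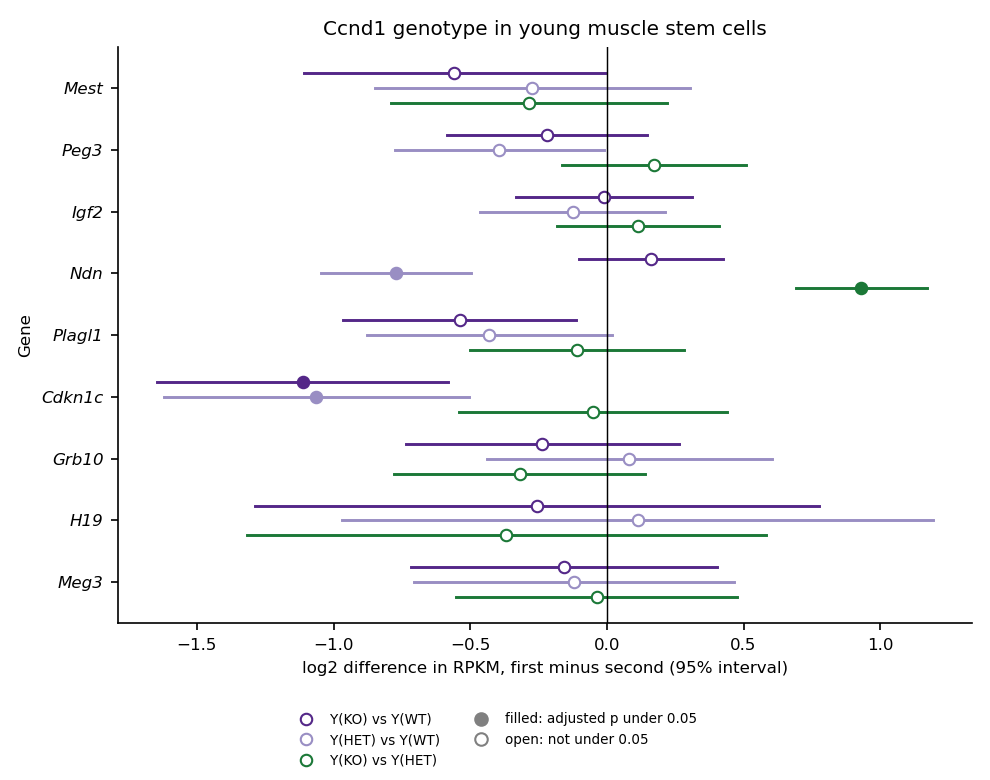
Log2 difference in adjusted RPKM (horizontal axis) with 95% intervals for Y(KO) against Y(WT), Y(HET) against Y(WT) and Y(KO) against Y(HET); filled points have an adjusted p under 0.05. Cdkn1c is left of 0 in both floxed genotypes and near 0 between them, while Ndn is left of 0 in Y(HET) alone.

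The other 7 members were not called in any genotype comparison when fitted by cohort. Plagl1 was 6.59, 9.59, 8.83, 5.602 and 5.30 RPKM in Y(KO), against 9.95, 10.3 and 10.2 RPKM in Y(WT). The groups did not overlap, and the log2 difference of -0.54 ± 0.20 had an adjusted p of 0.109. Leaving out 1 library brought its limma adjusted p as low as 0.0486. With all 36 libraries in 6 merged groups Plagl1 was called in Y(KO) (-0.55, adjusted p = 0.00243) and in Y(HET) (-0.44, adjusted p = 0.0260). Mest was 14.7, 11.3, 9.47, 21.9 and 13.8 RPKM in Y(KO), with a log2 difference of -0.56 ± 0.26 from Y(WT) (adjusted p = 0.190). Peg3 was 50.5, 52.1, 55.2 and 45.4 RPKM in Y(HET), against 83.5, 60.8 and 58.2 RPKM in Y(WT). All HET values were lower, and the difference was -0.39 ± 0.18 (adjusted p = 0.203). Igf2 differed by -0.01 ± 0.15 in Y(KO) and -0.13 ± 0.16 in Y(HET), with intervals of -0.33 to 0.31 and -0.46 to 0.21. H19 varied most within genotypes, from 1.49 to 5.82 RPKM in Y(KO), where 98.3% of genes had a smaller log2 SD. Its interval in Y(KO) against Y(WT), -1.29 to 0.78, was too wide to read a direction. Grb10 and Meg3 had log2 differences between -0.32 and 0.08 in the 3 genotype comparisons.

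In the related lists, 20 cycle genes gave 1 higher and 4 lower in Y(KO) against Y(WT), 25.0% against 6.99% of all genes, where the lower ones include the deleted Ccnd1 and Cdkn1c itself. Cdk2, a kinase that p57 inhibits, was lower too (-0.54 ± 0.09, adjusted p = 0.00822), and Ccnd2, the sister cyclin, was the higher one (0.50 ± 0.12, adjusted p = 0.0302). The 21 IGF pathway genes gave no call in Y(KO), where the lowest adjusted p by limma was that of Igfbp7, a secreted binding protein (0.63 ± 0.20, adjusted p = 0.0647). In Y(HET) 0 were higher and 3 lower, 14.3% against 5.39% of all genes. The lower ones included Igf2bp2, an RNA-binding protein that binds Igf2 messages (-0.93 ± 0.21, adjusted p = 0.0261), and Akt2, a kinase below the insulin receptor (-0.52 ± 0.12, adjusted p = 0.0242).

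For each member, the genes with the most similar log2 profile over the 36 libraries were listed by Pearson's r, as a description only, since the libraries share the adjustment and the age groups. For Mest they were Tmem263 (r = 0.874), Olfml2b (0.874) and Hmgb2 (0.869). For Igf2 they were Gstm2 (0.866), Ptprk (0.863) and Pak1 (0.861), and for Plagl1 Zfp281 (0.860), Brwd3 (0.831) and Clk1 (0.821). Grb10 was most like Rnf19a (0.861), Usp54 (0.861) and Sowahc (0.850), and Meg3 like 4933428G20Rik (0.823), Zfp36l1 (0.805) and Sh3pxd2b (0.804). Ndn was most like Sec1 (0.835), Ift74 (0.817) and Rrp8 (0.805), and Peg3 like Vps13b (0.825), Smc3 (0.808) and Musk (0.755). Cdkn1c had lower values, with Snx12 (0.783), Ift122 (0.744) and Myzap (0.743). H19 had the lowest, with 2310039H08Rik (0.611), 9130401M01Rik (0.597) and Hmgn2 (0.587).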

How the data were processed

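RNA of sorted muscle stem cells was measured in 36 libraries, 1 per mouse, from polyA RNA with oligo(dT) priming and 101 bp paired reads, per the labels' protocols. The submitters' processing notes name Trim Galore for trimming, STAR for alignment, featureCounts (Subread) for counting and the mm10 build. No source used here names versions, the strand setting or the later adjustment. The authors deposited RPKM values of 11337 genes without any 0, together with a score per gene, their correlation coefficient with Ccnd1. That the scale is RPKM was read from the values: in each library the products of value and exon kilobases added up to between 958293 and 1204774. The centred log2 matrix had rank 29 of 35, and 24 of 30 after 6 merged groups. Depth per library is unknown.

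The 9 members, the gene lists and the tests were chosen with earlier results of these data known. For each cohort, limma was run on log2 RPKM without a pseudocount, each group having its own mean, with version 3.58.1 in R 4.3.3 (eBayes with trend and robust settings), after a check on simulated data, with Benjamini-Hochberg adjustment across all genes. All 9 members were named in each of 9 comparisons. From the other lists, the called genes with the lowest p were named, at most 2 per direction and list, together with Igf1r, Igf2r, Dlk1, Kcnq1ot1, Cdkn1a and Cdkn1b, chosen after their values were seen. For likeness, the 3 genes with the highest Pearson r were named. Positions came from GENCODE M21 (mm10) and sequences from RefSeq tables (GRCm38.p6). P values measure the spread between mice that was left after the authors' adjustment. After 8 group means 24 of 28 directions remained, so the tests assume more degrees of freedom than the values hold. Alternatives were median-of-ratios scaling, a pseudocount of 0.5 RPKM, a mean of at least 1 RPKM, eBayes without the trend and robust settings, other sets of libraries, the replicate number as a block and leaving out each library. Figures were drawn with matplotlib 3.10.9 in Python 3.11.15.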

Additional observations from a re-analysis of the deposited data

Results flagged for a closer look

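In 45 groups of 4 to 10 libraries, 9 genes in each of 5 groups, 3 held a value far from the others by Dixon's criterion, where chance flags about 1 in 20. Ndn was 4.03 RPKM in O(-Ex) replicate 7, the lowest of 7, with the next at 5.97 RPKM and the highest at 6.77 RPKM. Mest was 28.0 RPKM in Y(HET) replicate 1, the highest of 4, with the next at 14.6 RPKM. Peg3 was 39.8 RPKM in Y(-Ex) replicate 4, the lowest of 6, with the next at 59.6 RPKM.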

How the results depend on the processing

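The 6 age calls with a locked wheel, the 5 of old mice with a free wheel against young mice, Mest in O(WT) against Y(WT) and both Ndn calls in Y(HET) held under every alternative run. Cdkn1c in Y(KO) against Y(WT) lost its call in 4 of 16 settings (adjusted p up to 0.104), and in Y(HET) against Y(WT) in 8 of 15 (up to 0.135). The 6 merged groups join Y(WT) to Y(-Ex) and O(WT) to O(-Ex). Y(KO) and Y(HET) are then set against wheel cohort mice too. In Y(KO) against Y(WT), 0 members were called with only the groups compared, 0 with the replicate block and 2 with all 36 libraries in 6 merged groups, against 1. Leaving out 1 library gave 0 to 2. In Y(HET) against Y(WT), 1 was called with only the groups compared, 1 with the block, 3 with 6 merged groups, and 1 to 2 when a library was left out. With age and locked wheel, Ndn was called as well, for 7 members, with 6 merged groups and with the block (adjusted p = 0.0415). With 6 merged groups O(WT) against Y(WT) is the same pooled fit as the locked wheel comparison, and 7 were called. In O(WT) against Y(WT), 4 were called with all 36 libraries in 8 groups, and 1 to 2 with a library left out. With the block there, Plagl1 was called (adjusted p = 0.0310) and Igf2 was not (adjusted p = 0.0687). The cause was not tested.

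Deviations of same-numbered mice from their group means correlated between -0.26 and 0.30. In no comparison did every mouse correlate best with its own number. With the wheel in old mice 3 of 5 did, in Y(KO) 2 of 3 against Y(WT) and 2 of 4 against Y(HET). In O(WT) against Y(WT) 1 of 3 did, and in the remaining comparisons 0 did. The values carry the authors' adjustment, so this check does not settle whether the numbers pair the mice. With the replicate block, the sign turned for H19 with age and locked wheel (-0.030), Ndn with the wheel in old mice (-0.093) and in the difference of wheel effects (-0.057), Igf2 (0.056) and Grb10 (0.024) in Y(KO) against Y(WT), and H19 in Y(HET) against Y(WT) (-0.0069). With 6 merged groups it turned for Igf2 in Y(KO) against Y(WT) (0.059) and Peg3 in O(WT) against Y(WT) (0.14). None of these was called. Leaving out 1 library turned the sign of other values, all uncalled. H19 spanned -0.14 to 0.16 with age and locked wheel, -0.032 to 0.26 in O(+Ex) against Y(-Ex), -0.060 to 0.28 with the wheel in young mice, -0.17 to 0.17 in the difference of wheel effects, -0.48 to 0.032 in Y(KO) and -0.083 to 0.41 in Y(HET) against Y(WT), and -0.12 to 0.40 in O(WT) against Y(WT). Ndn spanned -0.068 to 0.074 with the wheel in old mice, -0.10 to 0.053 in young mice and -0.033 to 0.12 in their difference. Mest spanned -0.070 to 0.28 with the wheel in young mice, and Cdkn1c -0.21 to 0.32 in the difference. In Y(KO) against Y(WT) Igf2 spanned -0.11 to 0.060, in Y(HET) against Y(WT) Grb10 -0.037 to 0.18, and in O(WT) against Y(WT) Peg3 -0.12 to 0.14. In Y(KO) against Y(HET) the spans were -0.26 to 0.044 for Cdkn1c, -0.22 to 0.031 for Plagl1 and -0.15 to 0.13 for Meg3.

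Counts over all genes moved more. Y(KO) against Y(WT) called 793 genes, but 379 with only the groups compared, 2793 with 6 merged groups, 1 with the block, 116 without Y(WT) replicate 2 and 98 without Y(WT) replicate 3. Y(HET) against Y(WT) called 611, but 300, 2214 and 179 in the first 3 of these settings. Y(KO) against Y(HET) called 685, but 327, 1049 and 262, and 330 with median-of-ratios scaling. The young wheel comparison called 127, but 22, 477 and 14. With 6 merged groups the old wheel comparison called 1576 against 838, the difference of wheel effects 38 against 1, and O(WT) against Y(WT) 5786 against 1790. The 5786 come from the pooled fit of both cohorts, the same as for the locked wheel, and not from the Ccnd1 cohort alone. For the difference of wheel effects, fitting only the groups compared is the same fit and was not run separately.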
